A study of Rhodotorula toruloides with 36 samples.

Results

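The strain BIS14 of the oleaginous yeast Rhodotorula toruloides, which holds 7 copies of the cassette P_GAPDH-BIS, was set against its wild type (WT) at 48 h of growth, in stationary phase. The comparison used 3 libraries of BIS14 and 5 libraries of WT, 8 of the 36 libraries of the series. They were chosen by strain and time label, and 1 of the 6 WT libraries at 48 h, WT replicate 2, was left out because of its low depth and its distance from the others. BIS14 is IFO0880 with the genotype IFO0880/P_GAPDH-BIS, and WT is IFO0880 without a cassette. Both were grown in synthetic defined medium, with 2% glucose by the sample labels and a lower amount by the study's methods. Polyadenylated RNA was read and counted per transcript. Cassettes enter this yeast at random places and in varying numbers after transformation, and BIS14 is a single transformant, so copy number, place of insertion and any other difference of that clone cannot be told apart. Nothing in the labels says that the replicates were separate cultures, so the p-values measure the spread between libraries. For the main test that spread was estimated jointly over 17 libraries of 5 strains at 48 h.

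BIS is the α-bisabolene synthase of the grand fir Abies grandis, here driven by the native promoter of the glycolytic gene GAPDH. It cyclizes farnesyl diphosphate (FPP), a product of the mevalonate pathway. That pathway builds its units from acetyl-CoA, and FPP is also the entry to ergosterol, the sterol of fungal membranes. Acetyl-CoA is in addition the substrate of fatty acid synthesis, for which this yeast is known as an oil producer. The question of the comparison was how cells that make a foreign terpene differ in transcript levels from cells that do not, after growth has slowed.

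Library totals at 48 h were 1092869 to 1815228 counts in BIS14 and 1420665 to 3102440 counts in the 5 WT libraries. WT replicate 2 had 657951 counts, and its log2 levels correlated with those of the other WT libraries at r = 0.714 to 0.738 across transcripts, against 0.973 to 0.988 among the 5 that were kept. Pairs of BIS14 libraries correlated at 0.968 to 0.980. Within BIS14, replicate 2 stood apart. Its 10 most abundant transcripts took 4.78% of its counts, against 3.57% and 3.89% in the other BIS14 libraries and 2.81% to 2.95% in WT. Its TMM scaling factor was 0.85, against 0.99 and 0.96 in the other BIS14 libraries and 1.08 to 1.09 in WT.

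The cassette genes were read first, since they check the labels. BIS gave 9233, 13077 and 6390 counts in the 3 BIS14 libraries, against 6, 7, 11, 14 and 14 counts in the 5 WT libraries. In BIS14 this was 0.562% (95% Wilson interval 0.551 to 0.573), 0.720% (0.708 to 0.733) and 0.585% (0.571 to 0.599) of all counts. The intervals cover counting error only, since reads from PCR are not independent molecules. By level per length, in FPKM (counts scaled by transcript length and library total), BIS ranked 3, 1 and 5 among the native transcripts of these libraries (Nat, described next, left aside), with 2536 ± 349 FPKM in BIS14 (SD, n = 3) and 1.86 ± 0.34 FPKM in WT (SD, n = 5). The log2 fold change was 10.62 (SE 0.17, adjusted p = 1.83e-22). The source of the few BIS reads in WT was not tested.

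Nat, the nourseothricin resistance gene carried by the same cassette, gave 6896, 10051 and 5042 counts in BIS14 and 4 to 9 counts in WT, and had the highest FPKM of all transcripts in each BIS14 library. Its log2 fold change was 11.05 (SE 0.22, adjusted p = 1.99e-20). Hyg, the hygromycin resistance gene, which belongs to the cassette of another strain, had 0 counts in all 3 BIS14 libraries and 1 count in 1 WT library. A count of 0 leaves room for up to 3 counts in a library. The ratio of Nat to BIS counts was 0.747, 0.769 and 0.789 in BIS14 at 48 h, against 0.324, 0.315 and 0.370 in BIS14 at 18 h. The ranges did not overlap, and the exact two-sided permutation test gave p = 0.1, the smallest that 3 against 3 libraries allow. The ratio in FPKM averaged 3.27 ± 0.09 in the later libraries of BIS14 and 1.43 ± 0.13 in the earlier ones (SD, n = 3 each).

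Transcript levels differed widely but by small steps. Of 7913 transcripts tested, 2827 (35.7%) differed between BIS14 and WT at an adjusted p under 0.05 (edgeR quasi-likelihood test, Benjamini-Hochberg over all tested). BIS14 was higher in 1541 (19.5%) and lower in 1286 (16.3%). The median size among those was 0.56 on the log2 scale, and 226 were at least 2-fold higher and 143 at least 2-fold lower. At 4-fold the numbers were 24 higher and 5 lower. The 3 BIS14 and 5 WT libraries did not overlap in 2318 transcripts (29.3%). No native transcript was switched on or off by the measure of at most 3 counts in every library of one strain and a mean of 10 CPM (counts scaled to the library size) in the other, where 0 met it in each direction.

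**Figure D1:**
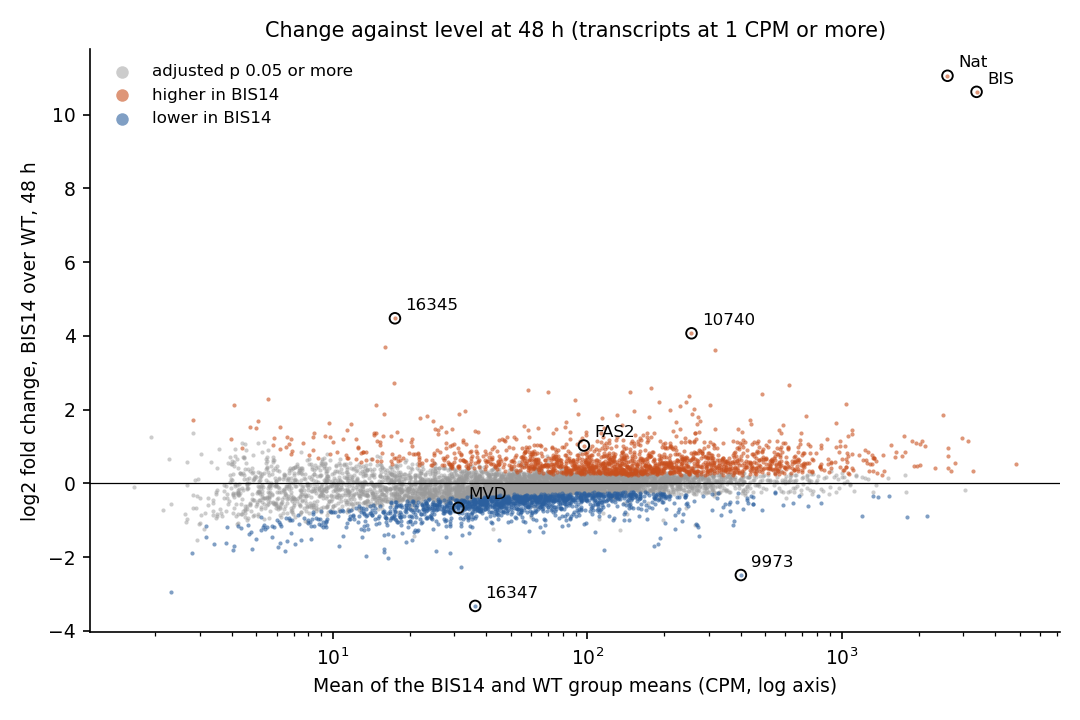
Log2 fold change of BIS14 over WT at 48 h against the mean of the group means (CPM, log axis), 1 point per transcript, coloured by call and direction. Nat (11.05) and BIS (10.62) stand alone at the top, native transcripts lie mostly within 1 unit of 0, and the calls higher in BIS14 sit further to the right than the calls lower in BIS14.

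These counts depended on the libraries and on the scaling. Without BIS14 replicate 2, 1780 transcripts differed, 1073 higher and 707 lower, and 1688 of them were among the calls above in the same direction. With WT replicate 2 put back, 1058 differed, 654 higher and 404 lower. With only the BIS14 and WT libraries in the fit, 2092 differed, 1199 higher (15.4%) and 893 lower (11.5%). With the total count of each library as its only scaling, 3928 differed, of which 845 were higher and 3083 lower, so that 21.5% of the calls were higher, against 54.5% with TMM. The median log2 fold change over all transcripts was -0.25 with total counts and -0.03 with TMM. Directions below are relative to the TMM scaling, and small rises are small against this shift.

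The genes of the mevalonate pathway, of its branches and of fatty acid supply could be linked to 17 transcripts by numbering. The list came from the study, which drew it up on 18 h samples of the same strains. Of the 17 genes, 9 were higher in BIS14, 3 were lower and the other 5 did not pass the test, where 19.5% of all transcripts were higher and 16.3% lower. Their median log2 fold change was 0.27, against -0.03 over all transcripts. The shares also varied with level. In the quartile of transcripts with the highest levels (at least 135 CPM), 43.3% were higher and 8.24% lower, with a median of 0.21. ACLY, ACC1, ERG10, ERG13, GGPPS, ERG1 and ERG11 fall in that quartile, so the shares over all are not a matched background for the list. Without BIS14 replicate 2, 7 of the 17 genes were higher and 1 lower, beside 13.5% and 8.89% of all. With total counts as the scaling, 6 were higher and 4 lower, beside 10.7% and 39% of all. With the replicate number as a block 7 were higher and 0 lower (11.9% and 6.51% of all), and with WT replicates 1 and 3 as the only WT libraries 6 and 0 (13.1% and 7.69%). Numbers 4 to 6 occur only in WT, so under the block too WT replicates 1 and 3 alone set the difference from WT. These 2 settings are therefore not separate checks. With WT replicate 2 put back, 5 of the 17 genes were higher and 0 lower, beside 8.26% and 5.1% of all. There 7 genes missed the threshold with log2 differences of the same sign. These were ACLY (0.68, adjusted p = 0.065), FAS1 (0.36, 0.152), IDI (0.77, 0.0822), ERG20 (0.54, 0.114), PMK (-0.62, 0.122), MVD (-0.54, 0.166) and ERG9 (-0.32, 0.136).

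The genes of fatty acid supply gave the most uniform picture, with 4 of 4 higher in BIS14 and a median log2 fold change of 0.54. Over all transcripts 19.5% were higher, and 43.3% in the highest level quartile, which holds ACLY and ACC1. The call of FAS1 held in only 10 of 22 alternatives. FAS2, a gene of fatty acid synthase (start 950698 and end 960325 on scaffold 1), had 112, 162 and 112 CPM in BIS14, against 77.7, 82.8, 57.6, 48.8 and 57.4 CPM in WT. Every BIS14 library lay above every WT library. FAS2 rose 2.04-fold (log2 1.03, SE 0.14, adjusted p = 1.32e-05), and the call held under all 22 alternatives run, with log2 values of 0.63 (with the replicate block) to 1.25.

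ACLY, the ATP citrate lyase that supplies acetyl-CoA in the cytosol, had 271, 303 and 246 CPM in BIS14, against 211, 184, 193, 167 and 199 CPM in WT. The groups did not overlap, and ACLY rose by 0.52 on the log2 scale (SE 0.093, adjusted p = 1.85e-04). ACC1, the acetyl-CoA carboxylase that commits acetyl-CoA to fatty acids, had 157, 178 and 153 CPM in BIS14, against 146, 117, 117, 80.2 and 98.1 CPM in WT. Its rise was 0.56 (SE 0.13, adjusted p = 0.00226). The call of ACC1 was lost with the replicate block (0.27, adjusted p = 0.135) and with WT replicates 1 and 3 only (0.31, adjusted p = 0.0753, within 9.79e-05 to 0.135 over the alternatives). FAS1, also a gene of the synthase, had 102, 113 and 102 CPM in BIS14, against 101, 92.6, 94.0, 73.9 and 77.9 CPM in WT, so that the highest WT library almost reached the lowest of BIS14. Its rise of 0.27 (SE 0.10, adjusted p = 0.0399) held in only 10 of 22 alternatives, was 0.22 (adjusted p = 0.184) without BIS14 replicate 2 and fell away with total counts (0.05, adjusted p = 0.703). Its adjusted p ran from 0.00653 to 0.703 over the alternatives.

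In the upper mevalonate pathway, 1 of 3 genes passed the test, as higher, where 19.5% of all transcripts were higher. ERG10, the acetoacetyl-CoA thiolase that joins the first acetyl-CoA units, had 130, 232 and 148 CPM in BIS14, against 85.0, 112, 97.2, 126 and 128 CPM in WT. BIS14 replicate 2 was far above all other libraries, and the lowest BIS14 library lay just above the highest of WT. The rise of 0.63 (SE 0.15, adjusted p = 0.00278) became 0.32 without that library (adjusted p = 0.097, the highest of the 22 alternatives, from 0.000442).

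ERG13, the HMG-CoA synthase, had 163 ± 18.1 CPM in BIS14 and 139 ± 16.6 CPM in WT (SD, n = 3 and 5), with overlap and a log2 difference of 0.24 (adjusted p = 0.0648). HMGR, the HMG-CoA reductase known as the regulated step of the pathway in other fungi and animals, had 71.3 ± 7.5 CPM in BIS14 and 60.5 ± 8.9 CPM in WT, a log2 difference of 0.25 (adjusted p = 0.164). Neither passed the test. Both reached it with WT replicates 4 to 6 as the only WT libraries.

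In the lower mevalonate pathway, 0 of 3 genes were higher and 2 were lower, where 16.3% of all transcripts were lower. MVD, the mevalonate diphosphate decarboxylase that yields isopentenyl diphosphate (start 11016 and end 12700 on scaffold 2), had 28.4, 20.2 and 23.8 CPM in BIS14, against 36.9, 34.6, 42.5, 35.6 and 41.0 CPM in WT. All BIS14 libraries were below all WT libraries, and MVD fell to 0.63 of its WT level (log2 -0.66, SE 0.16, adjusted p = 0.00288). The call of MVD was lost with the replicate block (-0.56, adjusted p = 0.0668), with WT replicates 1 and 3 only (-0.56, 0.0553) and with WT replicate 2 put back (adjusted p = 0.166, within 0.000346 to 0.166). PMK, the phosphomevalonate kinase one step before, had 109, 89.2 and 101 CPM in BIS14, against 129, 113, 130, 130 and 120 CPM in WT. PMK fell by 0.32 on the log2 scale (SE 0.097, adjusted p = 0.0125), but without BIS14 replicate 2 the difference was -0.25 (adjusted p = 0.105, within 0.000466 to 0.147 over the alternatives). MK, the mevalonate kinase, had 114 ± 7.6 CPM in BIS14 and 96.8 ± 14.5 CPM in WT, a log2 difference of 0.24 (adjusted p = 0.102).

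Among the enzymes of the prenyl diphosphates, 2 of 3 were higher, where 19.5% of all transcripts were higher. IDI, the isomerase that balances isopentenyl and dimethylallyl diphosphate (scaffold 8), had 99.8, 110 and 108 CPM in BIS14, against 80.1, 75.0, 65.4, 67.7 and 61.5 CPM in WT. No BIS14 library overlapped WT, and the rise was 0.61 (SE 0.10, adjusted p = 1.27e-04). ERG20, the synthase of FPP and so of the substrate of BIS, had 92.4, 61.2 and 72.3 CPM in BIS14, against 62.4, 51.5, 50.7, 60.0 and 57.4 CPM in WT. The groups overlapped by 1 library, and the rise of 0.42 (SE 0.13, adjusted p = 0.0167) was lost without BIS14 replicate 1 (0.21) and with total counts as the scaling (0.20, adjusted p = 0.249, within 0.00459 to 0.258). GGPPS, which extends FPP to the precursor of carotenoids, had 146 ± 4.7 CPM in BIS14 and 145 ± 10.8 CPM in WT, a log2 difference of 0.02 (SE 0.097), whose sign turned under several alternatives.

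The sterol branch was mixed. ERG9, the squalene synthase that competes with BIS for FPP, had 68.4, 53.4 and 65.6 CPM in BIS14, against 76.2, 79.6, 80.5, 90.3 and 79.7 CPM in WT. It fell by 0.39 on the log2 scale with no overlap (SE 0.11, adjusted p = 0.0097), and the difference was -0.28 without BIS14 replicate 2 (adjusted p = 0.105, within 0.000621 to 0.172 over the alternatives). The next enzymes, which make and cyclize squalene epoxide, were higher.

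ERG1, the squalene epoxidase, had 184, 262 and 175 CPM in BIS14, against 136, 131, 125, 131 and 141 CPM in WT. Its rise of 0.65 (SE 0.11, adjusted p = 1.53e-04) held under all 22 alternatives, with values of 0.41 to 0.75. ERG7, the lanosterol synthase, had 86.3, 89.8 and 67.5 CPM in BIS14, against 60.9, 59.4, 57.2, 61.4 and 56.8 CPM in WT. It rose by 0.47 (SE 0.11, adjusted p = 0.00267), and by 0.25 with total counts (adjusted p = 0.0775, the highest of the alternatives, from 0.00102). ERG11, the lanosterol demethylase, had 222 ± 27.8 CPM in BIS14 and 231 ± 10.8 CPM in WT, a log2 difference of -0.06 (adjusted p = 0.649) that passed as lower only with total counts.

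**Figure D2:**
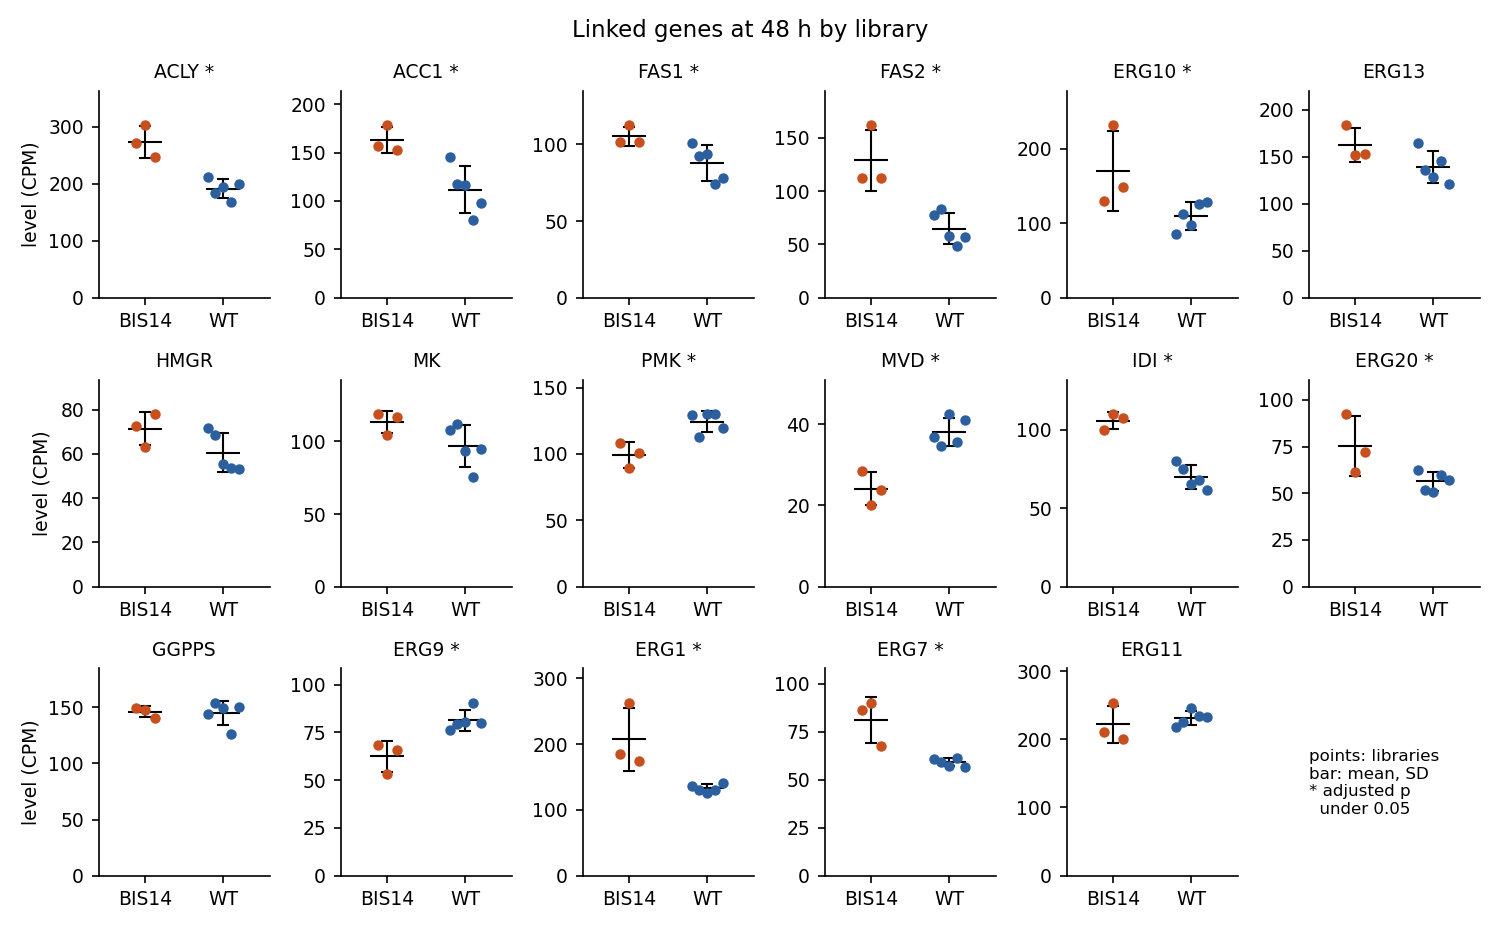
Level in CPM of each linked gene in the 3 BIS14 libraries (left) and the 5 WT libraries (right) at 48 h, with mean and SD. An asterisk marks an adjusted p under 0.05: the points separate most clearly for FAS2, ACLY, IDI and ERG1 (higher in BIS14) and for MVD and ERG9 (lower in BIS14), while ERG10 and ERG1 have 1 BIS14 library far above the rest.

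The same strains had been read at 18 h, in exponential growth. At that time 13 of the 17 genes were higher in BIS14 than in WT and 0 lower, with a median log2 fold change of 0.53, while over all 7375 transcripts tested at 18 h 1295 differed (17.6%), 777 higher (10.5%) and 518 lower (7.02%). The list was drawn up on these 18 h samples and linked through their fold changes, so its counts at 18 h are a description. Whether the difference itself changed was tested with an interaction term, (BIS14 minus WT at 48 h) minus (BIS14 minus WT at 18 h), in a fit of 35 libraries. It passed for 1224 of 7899 transcripts (15.5%), upward for 697 (8.82%) and downward for 527 (6.67%). Among the 17 genes, 0 moved upward and 5 downward, namely ERG13, ERG7, MVD, ERG20 and ERG9. A list drawn up on 18 h values favours larger differences at 18 h, so the shared direction of the 5 is a description too.

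ERG13 moved most. Its log2 fold change was 1.59 (SE 0.20) at 18 h and 0.24 (SE 0.098) at 48 h, a change of -1.36 (SE 0.25, adjusted p = 0.000286). At 18 h its levels were 376 to 558 CPM in BIS14 and 137 to 190 CPM in WT, well apart. ERG7 was 1.40 (SE 0.19) above WT at 18 h and 0.47 (SE 0.11) at 48 h, a change of -0.93 (adjusted p = 0.00774).

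MVD differed by 0.26 (SE 0.19) at 18 h, which did not pass the test, and by -0.66 at 48 h, a change of -0.92 (adjusted p = 0.0131). ERG20 had 1.06 at 18 h and 0.42 at 48 h, a change of -0.64 (adjusted p = 0.0214). ERG9 had 0.13 at 18 h and -0.39 at 48 h, a change of -0.52 (adjusted p = 0.0206). All these genes stood lower against WT at 48 h than at 18 h. The change of ERG13 and that of ERG7 passed under all 27 alternatives. Without BIS14 replicate 2 at 48 h the others did not pass, with MVD at -0.79 (adjusted p = 0.0666, within 0.00036 to 0.129), ERG20 at -0.50 (0.112, within 0.00514 to 0.218) and ERG9 at -0.40 (0.106, within 0.00998 to 0.111). With WT replicate 2 put back these were -0.81 (0.129), -0.53 (0.218) and -0.46 (0.111). The interaction was not past the threshold for the genes of fatty acid supply, whose log2 fold changes were 0.79, 0.53, 0.37 and 0.77 at 18 h and 0.52, 0.56, 0.27 and 1.03 at 48 h for ACLY, ACC1, FAS1 and FAS2 in that order.

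**Figure D3:**
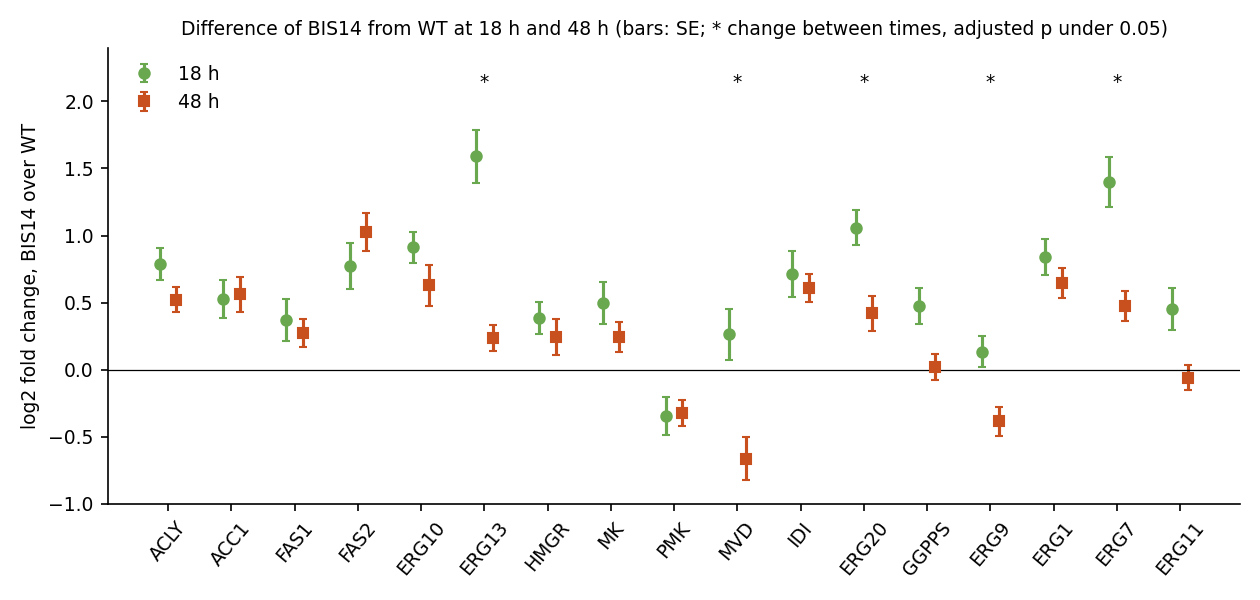
Log2 fold change of BIS14 over WT for the 17 linked genes at 18 h (circles) and 48 h (squares), with SE as bars. The asterisks mark the 5 genes whose difference changed between the times, all downward; ERG13 stands at 1.59 at 18 h and 0.24 at 48 h, and FAS2 at 0.77 and 1.03.

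Over all native transcripts tested at both times (7351), which share no libraries between the times, 346 were higher in BIS14 at both. This is 22.9% of the 1510 higher at 48 h and 44.7% of the 774 higher at 18 h, where 10.5% of all were higher at 18 h. Lower at both times were 117, which is 9.92% of the 1179 at 48 h and 22.6% of the 517 at 18 h, where 7.03% of all were lower at 18 h. Opposite directions were rarer, with 58 higher at 48 h and lower at 18 h, and 60 lower at 48 h and higher at 18 h. Of those lower at 18 h 11.2% were higher at 48 h, beside 19.5% of all tested at 48 h. Of those higher at 18 h 7.73% were lower at 48 h, beside 16.3% of all.

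The other cassette strains place BIS14 on the scale of copy number, with BIS18 holding 1 copy and BIS3 10 copies of P_GAPDH-BIS. BIS reached 2536 ± 349 FPKM in BIS14, against 331 ± 4.0 FPKM in BIS18 and 4048 ± 90.5 FPKM in BIS3 (SD, n = 3 each). BIS14 exceeded BIS18 by 3.04 (SE 0.13, adjusted p = 8.2e-13) and lay below BIS3 by a log2 difference of -0.52 (SE 0.12, adjusted p = 0.013). This last difference of BIS passed in 9 of 14 alternatives. It was lost, among others, without BIS14 replicate 3 (-0.45, adjusted p = 0.0556) and with WT replicate 2 put back (-0.52, adjusted p = 0.566, within 5.39e-05 to 0.566), and was -0.72 without BIS14 replicate 2. Against BIS18, 775 transcripts (9.79%) differed, 434 higher in BIS14 (5.48%) and 341 lower (4.31%). Against BIS3, 581 (7.34%) differed, 397 higher in BIS14 (5.02%) and 184 lower (2.33%). Without BIS14 replicate 2 the counts were 252 and 206, and with WT replicate 2 put back, which enters through the shared estimate of the spread, they were 17 and 19.

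Of the 1539 native transcripts higher in BIS14 than in WT, 355 were also higher than in BIS18 and 4 lower, and 300 were higher than in BIS3 and 10 lower. Of the 1286 lower than in WT, 228 were also lower than in BIS18 and 0 higher, and 96 were lower than in BIS3 and 14 higher. These comparisons share the BIS14 libraries and are given side by side only.

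Among the 17 genes, FAS2 was higher in BIS14 than in BIS18 by 0.75 (SE 0.16, adjusted p = 0.00704) and ERG1 by 0.42 (SE 0.13, adjusted p = 0.0416), while PMK was lower by a log2 difference of -0.39 (SE 0.11, adjusted p = 0.0275). In level, FAS2 had 129 ± 28.8 CPM in BIS14 and 77.1 ± 3.6 CPM in BIS18. Against BIS3, ERG20 was lower in BIS14 (log2 difference -0.57, SE 0.14, adjusted p = 0.0156), with 75.3 ± 15.8 CPM in BIS14 and 111 ± 12.3 CPM in BIS3, and so was ERG9 (-0.43, SE 0.12, adjusted p = 0.0332). The other genes of the list passed neither test. None of these 5 differences passed without BIS14 replicate 2. FAS2 then differed from BIS18 by 0.54 (adjusted p = 0.0621), ERG1 by 0.21 (0.304) and PMK by -0.31 (0.132), and from BIS3 ERG20 differed by -0.43 (0.117) and ERG9 by -0.32 (0.219). With WT replicate 2 put back the adjusted p was 0.247, 0.362, 0.706, 0.514 and 0.348 in the same order, with log2 differences of 0.74, 0.41, -0.39, -0.57 and -0.44. Over the alternatives the adjusted p began at 0.00127 for FAS2, 0.0215 for ERG1, 0.0164 for PMK, 0.0016 for ERG20 and 0.0136 for ERG9.

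The transcripts with the largest changes at no less than 10 CPM carry no gene name in the files and are given by number and place. Transcript 10740 (scaffold 13, start 452902, end 454246) had 466, 517 and 471 CPM in BIS14, against 21.6, 26.7, 28.2, 27.2 and 37.8 CPM in WT. Its log2 fold change was 4.07 (SE 0.13, adjusted p = 1.18e-16) at 48 h and 4.58 at 18 h. Its level was about even among the BIS14 libraries, and it followed the strains, with log2 fold changes over the shared WT libraries of 2.15 in BIS18, 4.91 in BIS3 and 5.72 in GB2, derived from BIS3, which holds 6 copies of P_ANT-BIS as well. BIS14 differed from BIS18 by 1.92 (adjusted p = 3.29e-09) and from BIS3 by -0.84 (adjusted p = 0.000249), and the second of these was lost only with WT replicate 2 put back (adjusted p = 0.357, from 1.05e-09). The next 3 tested transcripts along the scaffold were also higher in BIS14, by 0.76, 0.84 and 0.91.

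Transcript 16345 (scaffold 8, start 1213713, end 1217281) rested on few reads in WT, with 62, 56 and 27 counts in BIS14, against 3, 4, 5, 1 and 5 counts in WT. In CPM this was 38.2, 36.5 and 25.7 in BIS14 and 0.35 to 2.61 in WT, a log2 fold change of 4.48 (SE 0.28, adjusted p = 2e-10). Its next tested neighbour, 16347 (start 1222878, end 1223691), which starts 9165 bases further on, went the other way. It had 8.01, 7.16 and 3.80 CPM in BIS14, against 63.4, 54.1, 66.2, 65.9 and 80.8 CPM in WT, a log2 fold change of -3.32 (SE 0.24, adjusted p = 2.26e-09). The left-out WT replicate 2 had 9 counts of 16347, against 83 to 272 in the WT libraries that were kept. Transcripts 16345 and 16347 were similarly placed at 18 h, at 3.92 and -2.97. Against the shared WT libraries at 48 h, 16345 had 3.88 in BIS18, 4.30 in BIS3 and 5.25 in GB2, and 16347 had -2.07, -3.13 and -2.52 in the same strains, so that all 4 cassette strains carried the pair of opposite changes.

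Transcript 9973 (scaffold 11, start 397573, end 399275) had 135, 109 and 121 CPM in BIS14, against 489, 564, 710, 761 and 877 CPM in WT. It fell to 0.18 of its WT level (log2 -2.49, SE 0.16, adjusted p = 3.44e-10). The left-out WT replicate 2 had 23 counts of 9973 in 657951, where BIS14 replicate 3 had 127 in 1092869. The groups were thus apart only without that library. The 2 tested transcripts that follow 9973, with starts 1970 and 3754 bases further on, were also lower, by log2 differences of -2.27 (adjusted p = 1.32e-06) and -1.69 (adjusted p = 9.9e-07). At 18 h transcript 9973 differed by -1.69 (SE 0.20), and the change between the times of -0.80 (SE 0.27) passed (adjusted p = 0.0384), but in 17 of 27 alternatives only, and not without BIS14 replicate 2 at 48 h (-0.71, adjusted p = 0.109, within 0.00479 to 0.582). Over the shared WT libraries at 48 h its log2 fold change was -1.24 in BIS18, -1.90 in BIS3 and -0.99 in GB2, so the fall was not particular to BIS14. Transcript 9973 was lower in BIS14 than in BIS18 by a log2 difference of -1.24 (adjusted p = 2.04e-04) and than in BIS3 by -0.58 (adjusted p = 0.0389). With BIS14 replicates 1 and 3 only, the difference from BIS18 passed (-1.16, adjusted p = 0.00182) and that from BIS3 did not (-0.51, adjusted p = 0.181). With WT replicate 2 put back neither passed (adjusted p = 0.427 and 0.921).

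Along the scaffolds, 1 long stretch stood out. The median log2 fold change of the 18 main scaffolds ran from -0.14 on scaffold 14, where 14.2% of transcripts were higher and 24.8% lower, to 0.05 on scaffold 11. Over windows of 20 neighbouring tested transcripts (7560 windows), 29 had a median of at least 0.5, and all 29 were on scaffold 9. The highest window median there was 1.06, and the highest on any other scaffold was 0.49, just under the limit. The 29 windows marked a run of 28 tested transcripts between start 902948 and end 973571. Of these, 25 were higher in BIS14 and 0 lower, with a median of 1.03 and quartiles of 0.76 and 1.44. The 40 transcripts on its flanks had a median of -0.12, with 5 higher and 6 lower.

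The raise was near 2-fold in each library. The median difference of the run from the WT mean, on the log2(CPM + 1) scale, was 1.07, 1.02 and 0.99 in the 3 BIS14 libraries, against -0.03 to 0.002 in the WT libraries. At 18 h it was 0.83, 1.03 and 1.13 in BIS14, against -0.05 to 0.07 in WT. BIS18 showed the run too, with 0.97 to 1.05 at 48 h, while BIS3 had 0.10 to 0.19 and GB2 -0.005 to 0.14. In the direct tests, 2 of the 28 transcripts were higher and 2 lower in BIS14 than in BIS18, with a median of 0.0007, and 23 were higher and 0 lower in BIS14 than in BIS3, with a median of 0.99. GGPPS and ERG9 lie on scaffold 9 outside the run. Whether the stretch is present in extra copies was not tested. The run was picked for its values, so its counts are a description.

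**Figure D4:**
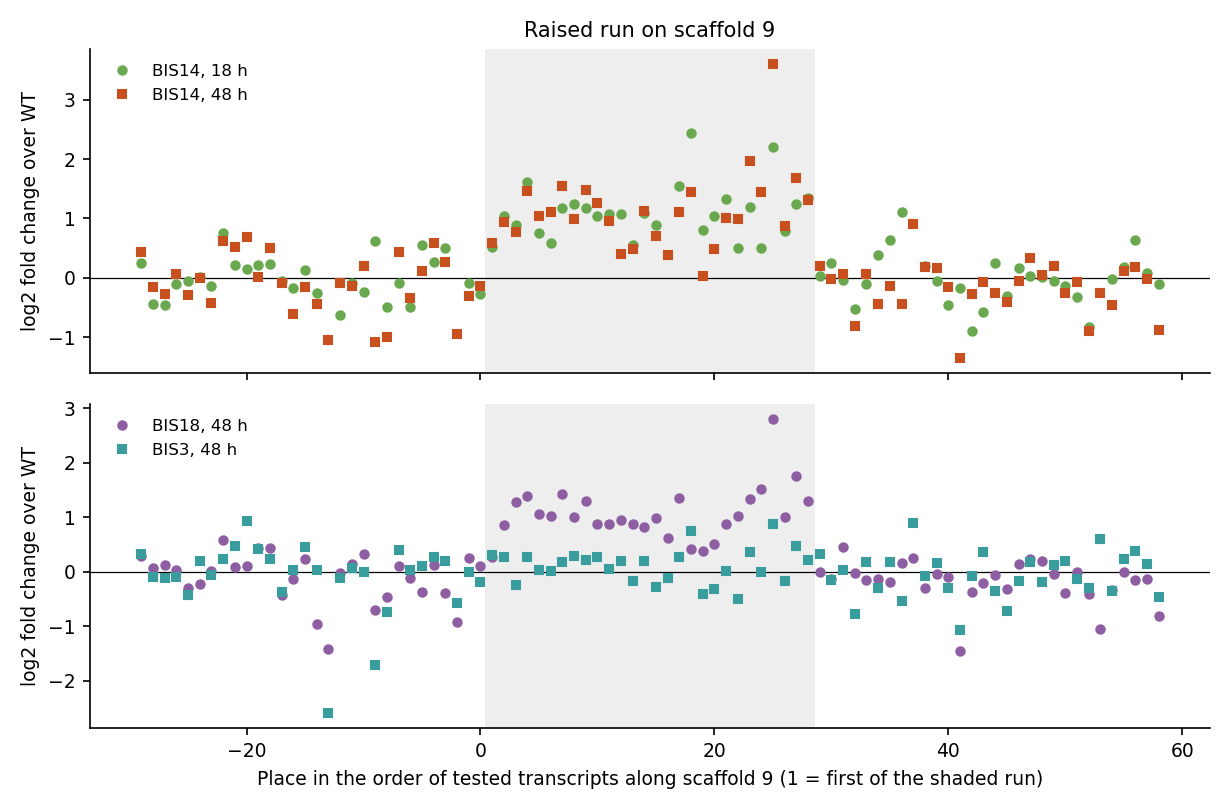
Log2 fold change over WT of tested transcripts in their order along scaffold 9, for BIS14 at 18 h and 48 h (top) and for BIS18 and BIS3 at 48 h (bottom), with the run of 28 shaded. BIS14 at both times and BIS18 lie near 1 within the shading and scatter around 0 outside it, whereas BIS3 stays around 0 throughout.

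A second run, found by the same running median, covered 10 tested transcripts on scaffold 16 (start 272562, end 294483). Of these, 9 were higher in BIS14 at 48 h, beside 19.5% of all tested, with a median of 0.68. The 40 transcripts on its flanks had a median of -0.02, with 9 higher and 7 lower. Of the 9 tested at 18 h, 1 was higher and 1 lower, beside 10.5% and 7.02% of all, with a median of -0.05. The libraries were uneven, with median differences from the WT mean of 0.38, 0.92 and 0.87 in BIS14, against -0.11 to 0.11 in WT. BIS18 had 0.20 to 0.28, BIS3 0.57 to 0.73 and GB2 0.74 to 0.92 over the same WT libraries. The change between the times passed upward for 4 of 10, beside 8.82% of all. This run too was picked for its values.

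The share of transcripts higher in BIS14 and the median climbed with the level of a transcript, while the share lower was largest in the second quartile. Level was the mean of the BIS14 and WT group means at 48 h. The same values gave the fold change, so the quartiles were not set independently of it and the pattern is a description. In the quartile with the highest levels (at least 135 CPM), 43.3% of transcripts were higher in BIS14 and 8.24% lower, with a median log2 fold change of 0.21. In the quartile with the lowest levels (under 31.9 CPM), 6.93% were higher and 17.5% lower, with a median of -0.21. The quartiles between, from lower to higher level, had 9.21% and 18.4% higher, 24.3% and 15% lower, and medians of -0.16 and 0.006. Each BIS14 library showed this, with medians for the highest quartile of 0.14, 0.32 and 0.16 and for the lowest of -0.10, -0.30 and -0.12, against -0.04 to 0.03 and -0.05 to 0.05 in the WT libraries. These are log2 differences from the mean of the same WT libraries, so the WT values are centred by construction. The medians of BIS14 replicate 2 lay the furthest apart.

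With total counts as the scaling the order of the quartiles stayed, but the medians were -0.02 in the highest and -0.43 in the lowest, with 25.7% higher and 24.3% lower in the highest quartile. By that scaling the median of the abundant transcripts lay near 0 and those of the scarcer ones below it. Between quartiles of transcript length the medians differed less, at -0.04, -0.09, -0.07 and 0.05 from short to long under TMM.

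Transcripts that move between the growth phases were taken from BIS18, whose 6 libraries are shared with neither BIS14 nor WT. In BIS18 4986 of 7668 transcripts (65%) differed between the times, 2478 higher (32.3%) and 2508 lower (32.7%) at 48 h. Of those at least 2-fold higher at 48 h than at 18 h in BIS18 (1055), 18.2% were higher in BIS14 than in WT at 48 h and 27.1% lower, with a median of -0.16. Of those at least 2-fold lower at 48 h in BIS18 (595 tested), 29.7% were higher in BIS14 and 6.39% lower, with a median of 0.18. Over all transcripts 19.5% were higher and 16.3% lower. By library, the median of the first list was -0.15, -0.16 and -0.09 in BIS14 and -0.06 to 0.09 in WT, and that of the second 0.22, 0.15 and 0.17 in BIS14 and -0.03 to 0.05 in WT. Here too the differences were taken from the mean of the same WT libraries, which centres the WT values.

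For transcripts that rise towards stationary phase, the share lower in BIS14 was above that of all transcripts, and for those that fall the share higher was. In the highest quartile, 66% of the second list and 29.7% of the first were higher in BIS14, against 45% of the transcripts in neither. In the lowest quartile, 27.5% of the first list and 6.44% of the second were lower in BIS14, against 16.9% in neither. With total counts the medians of the lists were -0.38 and -0.04, beside -0.25 over all transcripts. Without BIS14 replicate 2 the first list had 13.2% higher and 20.2% lower and the second 23% higher and 2.68% lower, beside 13.5% and 8.89% over all. With WT replicate 2 put back the first list had 9.67% higher and 10.5% lower and the second 13.4% higher and 2.18% lower, beside 8.26% and 5.1% over all. The growth stage of the cultures at sampling was not part of the counts, and its part in these differences was not tested.

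**Figure D5:**
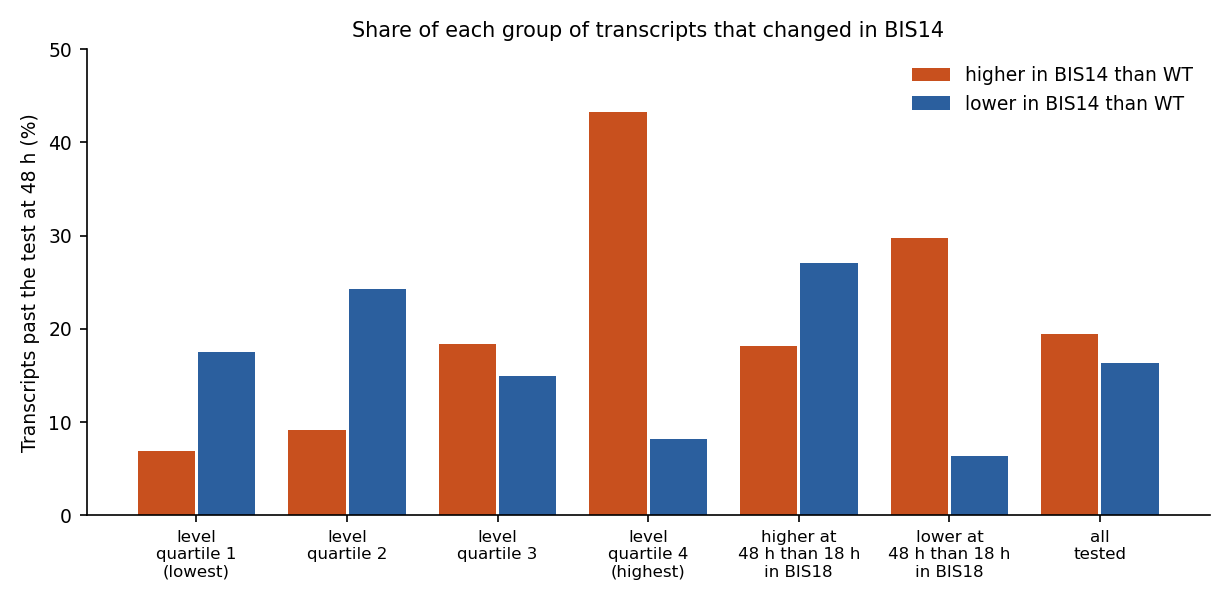
Share of transcripts higher (left bar) and lower (right bar) in BIS14 than in WT at 48 h, by quartile of mean level, by direction of change between 18 h and 48 h in BIS18, and over all tested. The share higher climbs from 6.93% to 43.3% with level, and is 29.7% against 18.2% for transcripts that fall and that rise towards 48 h in BIS18.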

How the data were processed

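The deposited values were raw read counts per transcript (8493 entries, 8490 of them native), which the authors made from TruSeq libraries with HISAT2 and featureCounts without normalizing them. Tool versions and strand setting are not given in the sources used here, so overlapping genes may share reads. Of the sample columns, 0 were left unused. The counts of 17 libraries at 48 h (18 less WT replicate 2) were fitted with edgeR 4.0.16 in R 4.3.3 (TMM, filterByExpr, quasi-likelihood test, Benjamini-Hochberg over all transcripts, threshold 0.05), and those of 35 libraries for the interaction. Levels at 18 h come from a separate normalization. Gene names were linked by a constant offset of 128 between protein and transcript numbers, chosen among 538 offsets on 18 h fold changes alone (root mean square difference 0.0102, next best 0.56). A gene table of another strain matched 0 identifiers.

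Named were the cassette genes, the 17 linked genes, and 2 transcripts in each direction, those that changed most among all past the test, at 10 CPM or more and without overlap. The members, lists and tests were chosen with earlier results of these data known. Runs joined stretches of at least 10 transcripts with a running median (span 5) of 0.5 or more, within 5 transcripts of each other, a rule set after seeing the data. Alternatives were RLE factors, total counts, other filters, thinning, DESeq2 1.42.0, other sets of libraries and a replicate block. The tests were tested on simulated data. Figures were drawn with matplotlib 3.10.9.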

Additional observations from a re-analysis of the deposited data

Results flagged for a closer look

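The difference of BIS14 from WT changed between 18 h and 48 h, by the interaction term of edgeR's quasi-likelihood test, for 6 of the named genes and transcripts, each downward: ERG13 by -1.36, ERG7 by -0.93, MVD by -0.92, transcript 9973 by -0.80, ERG20 by -0.64 and ERG9 by -0.52 on the log2 scale. Over all 7899 transcripts tested, 15.5% passed, 8.82% upward and 6.67% downward. Of the 6, only ERG13 and ERG7 also passed without BIS14 replicate 2 at 48 h, and transcript 9973 passed in 17 of 27 alternatives. ERG13, ERG7, MVD, ERG20 and ERG9 come from the list drawn up on 18 h samples. Hyg in WT at 48 h had 1 library set apart from the other 4, at 0.297 CPM, which is 1 count where the others had 0. With 4 libraries at 0, a single count sets a library apart by construction.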

How the results depend on the processing

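The 2827 differences from WT became 1458 with a replicate block, 1058 with WT replicate 2 put back and 1639 with WT replicates 1 and 3 only. They became 2092 with only the compared groups in the fit, and 1780 (without BIS14 replicate 2) to 2964 on leaving out single libraries. Against BIS18 the 775 became 442 with thinned counts, 17 with WT replicate 2 back, 445 with only the compared groups in the fit, and 226 to 998 on leaving out libraries (226 to 351 without BIS14 replicate 2 or any BIS18 library). Against BIS3 the 581 became 19 with WT replicate 2 back, 173 with only the compared groups, and 206 to 947 on leaving out libraries (206 without BIS14 replicate 2, 253 to 296 without a BIS3 library, 947 without BIS14 replicate 1). The change between times passed for 524 with WT replicate 2 back (1224 before) and for 770 (without BIS14 replicate 2 at 48 h) to 1656 on leaving out libraries. Total counts, added after seeing the data, gave 31.7% higher of the 812 calls against BIS18, 29.3% of 850 against BIS3 and 41.3% of 1191 for the change, where TMM gave 56%, 68.3% and 56.9%.

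The small difference of GGPPS turned to -0.097 with thinned counts, -0.0081 with the block, -0.20 with total counts and -0.026 with WT replicates 1 and 3, and ran from -0.031 to 0.040 on leaving out libraries. That of ERG11 turned to 0.088 with WT replicate 2 back and 0.0069 with WT replicates 1 and 3, and ran from -0.17 to 0.0037. BIS, Nat, FAS2, ERG1 and the 4 transcripts named by number kept their calls against WT under each alternative that could give them a value. The block cost ACC1, FAS1, PMK, MVD and ERG9 their calls. BIS14 and WT share replicate numbers only by label (same-number correlations -0.085 and -0.115). RLE factors, DESeq2 and the filters changed no call against WT at 48 h of a named gene they could test. Against BIS3, the call of ERG9 was lost with DESeq2 (-0.42, adjusted p = 0.0504). At these depths 3 against 5 libraries limit small differences. The cause of these shifts was not tested.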
